A study of Homo sapiens with 10 samples.

Results

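RNA polymerase I transcribes the ribosomal RNA genes in the nucleolus, and POLR1A is its largest subunit. The peaks described here are those where a POLR1A antibody gave signal on chromosomes 1 to 22 and X with no peak of POLR2A, H3K4me3 or H3K9me3 sharing even 1 bp. They were chosen by the overlap of the deposited peak calls, and numbered 696 of 3812 POLR1A peaks (18.3%), and are called POLR1A-only peaks. The cells were unmodified (WT) HCT116, an established human colorectal carcinoma line, profiled by CUT&Tag, in which an antibody directs a transposase to cut and tag the DNA around its target. There were 3 samples for POLR1A, 3 for POLR2A, the catalytic subunit of RNA polymerase II, 3 for H3K9me3, a histone mark of heterochromatin, and 1 for H3K4me3, a histone mark of active promoters. Each started from 100000 to 200000 cells.

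RNA polymerase II makes messenger RNA and is found at active promoters, most of which carry H3K4me3, whereas H3K9me3 covers repeats, pericentromeres and clusters of zinc finger genes. That POLR1A-only peaks miss the other lists is the rule of choice and not a finding. Each target had 1 deposited list, with no values per replicate, so nothing below has a replicate error and no test over samples was possible. Intervals are exact (Clopper-Pearson) 95% intervals and cover counting error only. In a bulk assay, a weak peak from few cells and weak signal in many cells cannot be told apart. As a description of the cells, 9 of 15 intestinal epithelial markers had H3K4me3 within 1 kb of a gene end, against 0 of 10 leukocyte markers, 2 of 9 fibroblast markers, 3 of 8 neuronal markers and 1 of 7 liver markers. VIL1, CDX1, CDH17, KRT20, LGALS4 and TFF3 were the epithelial markers without it. Among all protein-coding genes 54.6% had H3K4me3 there, so the epithelial count was near the background and does not by itself identify the cells.

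Only 12 of the 34961 RefSeq promoter windows (250 bases before to 50 bases after an annotated start, GRCh38.p14) touched a POLR1A-only peak. Of these, 7 are printed 5′ to 3′, because they show what promoter sequence lay under such peaks. They are the windows with at least 150 bases under the peak, and RNASEH2A, where an H3K4me3 peak began close by. Capitals mark the bases under the POLR1A peak.
ZCCHC12, chrX:118823574-118823873, + strand: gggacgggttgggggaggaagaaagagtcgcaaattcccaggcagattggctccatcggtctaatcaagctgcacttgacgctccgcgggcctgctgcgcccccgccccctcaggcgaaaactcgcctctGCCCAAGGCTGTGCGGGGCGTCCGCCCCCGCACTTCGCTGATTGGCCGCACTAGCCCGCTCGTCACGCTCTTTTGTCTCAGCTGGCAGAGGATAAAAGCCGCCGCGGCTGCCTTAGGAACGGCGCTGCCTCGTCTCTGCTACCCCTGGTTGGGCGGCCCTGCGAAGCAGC
BPIFB3, chr20:33053653-33053952, + strand: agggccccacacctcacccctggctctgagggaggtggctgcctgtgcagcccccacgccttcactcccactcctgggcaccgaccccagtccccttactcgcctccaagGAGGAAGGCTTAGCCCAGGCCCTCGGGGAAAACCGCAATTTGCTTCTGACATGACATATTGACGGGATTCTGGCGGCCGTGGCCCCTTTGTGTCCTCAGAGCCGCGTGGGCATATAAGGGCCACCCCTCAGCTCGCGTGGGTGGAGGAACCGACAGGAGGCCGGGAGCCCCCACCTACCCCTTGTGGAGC
RNASEH2A, chr19:12806334-12806633, + strand: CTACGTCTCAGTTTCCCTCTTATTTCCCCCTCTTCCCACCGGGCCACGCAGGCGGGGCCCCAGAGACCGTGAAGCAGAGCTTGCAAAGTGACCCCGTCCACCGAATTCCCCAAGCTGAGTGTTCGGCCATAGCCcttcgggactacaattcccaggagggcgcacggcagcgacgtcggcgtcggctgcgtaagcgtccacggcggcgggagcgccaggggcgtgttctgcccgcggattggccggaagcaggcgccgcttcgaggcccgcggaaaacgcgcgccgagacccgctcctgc
ISOC1, chr5:129094499-129094798, + strand: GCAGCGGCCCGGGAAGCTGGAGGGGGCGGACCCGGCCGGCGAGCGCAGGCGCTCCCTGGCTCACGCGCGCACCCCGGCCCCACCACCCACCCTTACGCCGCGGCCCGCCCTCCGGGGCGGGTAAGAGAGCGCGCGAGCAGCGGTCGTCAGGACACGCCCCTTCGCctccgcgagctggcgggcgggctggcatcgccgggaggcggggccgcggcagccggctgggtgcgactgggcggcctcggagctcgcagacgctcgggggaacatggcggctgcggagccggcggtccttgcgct
LINC02168, chr16:50806422-50806721, + strand: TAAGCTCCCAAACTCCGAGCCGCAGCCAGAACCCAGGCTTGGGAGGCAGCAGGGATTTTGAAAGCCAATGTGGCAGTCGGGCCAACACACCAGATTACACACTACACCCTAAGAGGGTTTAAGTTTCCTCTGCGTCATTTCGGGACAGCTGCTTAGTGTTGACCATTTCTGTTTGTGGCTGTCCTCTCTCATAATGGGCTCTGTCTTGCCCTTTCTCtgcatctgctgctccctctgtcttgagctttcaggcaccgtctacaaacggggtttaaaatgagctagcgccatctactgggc
PPP5C-AS1, chr19:46404189-46404488, - strand: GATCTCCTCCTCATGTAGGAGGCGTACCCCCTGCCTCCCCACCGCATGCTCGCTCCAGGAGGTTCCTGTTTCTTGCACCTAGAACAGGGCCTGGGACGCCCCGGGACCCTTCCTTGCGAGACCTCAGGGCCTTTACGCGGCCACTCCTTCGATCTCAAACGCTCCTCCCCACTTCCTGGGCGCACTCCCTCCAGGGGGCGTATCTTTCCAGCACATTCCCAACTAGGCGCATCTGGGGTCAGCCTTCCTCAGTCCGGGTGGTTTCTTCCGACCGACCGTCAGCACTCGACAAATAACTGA
LINC02643, chr10:21372901-21373200, - strand: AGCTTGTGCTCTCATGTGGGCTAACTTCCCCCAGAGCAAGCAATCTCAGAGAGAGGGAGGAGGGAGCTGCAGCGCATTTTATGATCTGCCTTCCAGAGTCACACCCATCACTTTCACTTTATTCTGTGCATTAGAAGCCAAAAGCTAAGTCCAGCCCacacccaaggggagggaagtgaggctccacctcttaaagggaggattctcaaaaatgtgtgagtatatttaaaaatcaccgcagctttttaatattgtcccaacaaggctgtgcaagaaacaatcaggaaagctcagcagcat

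The sequences differed in GC content. ISOC1 had 79.3% GC with 46 CpG dinucleotides, RNASEH2A 67.7% with 36, ZCCHC12 65.7% with 27 and BPIFB3 65.3% with 14. PPP5C-AS1 had 61.3% GC with 18 CpG, LINC02168 52.3% with 8 and LINC02643 47.0% with 2. Over the 12 windows the median GC content was 65.5%, against 64.3% in the 2253 windows under other POLR1A peaks and 58.7% in all windows. The median ratio of observed to expected CpG was 0.678 in the 12, 0.842 under other POLR1A peaks and 0.580 in all windows. A ratio of at least 0.6 was reached by 7 of the 12, by 91.6% of windows under other POLR1A peaks and by 49.0% of all.

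Short motifs were searched on both strands of the 300 bases. GGGCGG (the SP1 motif) was in 5 of the 12 windows, against 76.5% under other POLR1A peaks and 45.03% of all. CCAAT was likewise in 5, against 50.8% and 34.6%, and CCGGAAG (ETS) in 1, at RNASEH2A, against 21.6% and 10.3%. TATAAA was in none of the 12, against 3.68% under other POLR1A peaks and 11.5% of all windows. The AP-1 motif TGANTCA was also in none, against 3.64% and 7.68%. The E-box CACGTG was in none either, against 11.1% and 7.27%. No motif of these 6 contains another. The match or absence of these letters in a window is a description only.

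POLR1A-only peaks were weak. Their fold enrichment, the authors' linear ratio at the summit, ranged from 3.32 to 18.1 with a median of 4.03 and quartiles of 3.52 and 4.47. In the other 3116 POLR1A peaks the median was 5.88, with quartiles of 4.83 and 7.48. The median was lower in POLR1A-only peaks on 23 of 23 chromosomes, where it ranged from 3.58 to 4.47, against 5.23 to 6.91 in other POLR1A peaks, so the ranges did not overlap. A fold enrichment of at least 6 was reached by 24 POLR1A-only peaks (3.45%) and by 1478 other peaks (47.4%), and of at least 10 by 3 and 252. Of the other classes, the 159 POLR1A peaks on H3K4me3 alone had the lowest median fold enrichment, 4.51.

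The authors' significance values were low as well. A −log10 q of 5 or more was found in 26 POLR1A-only peaks (3.74%, interval 2.45 to 5.43), against 38.0% of all POLR1A peaks and 45.6% of the others. Among the 159 POLR1A peaks on H3K4me3 alone the share was 6.29%, with an overlapping interval (3.06 to 11.3). A −log10 q under 2 was found in 367 POLR1A-only peaks (52.7%, interval 48.9 to 56.5), against 17.9% of all POLR1A peaks and 30.8% of those on H3K4me3 alone. The median in POLR1A-only peaks was 1.77, close to the lowest value in the list, 1.02. Values were also coarse. The 696 peaks held 137 distinct fold values, and the 5 commonest covered 237 peaks (34.1%), against 5.68% in the other peaks. The value 3.61 alone, always with a −log10 q of 1.77, was shared by 72 POLR1A-only peaks. Peaks were narrow, with a median width of 246 bp, against 303.5 bp in other POLR1A peaks, and 43 (6.18%) were at least 400 bp wide, against 26.3%. The median width was close to this in POLR1A peaks on POLR2A alone (257 bp) and on H3K4me3 alone (260 bp).

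Membership comes from overlap with the other 3 lists, and fold enrichment from the POLR1A list. With 1 list per target, the decline of POLR1A-only peaks with strength is given as a description. After the POLR1A list was ranked by fold enrichment and divided into 10 equal groups, POLR1A-only peaks made up 69.9% of group 1, the weakest (interval 65.0 to 74.5), 39.9% of group 2 and 34.6% of group 3. They made up 13.1% of group 4, 3.67% of group 7 and 1.05% of group 10, the strongest (4 peaks, interval 0.286 to 2.66).

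**Figure D1:**
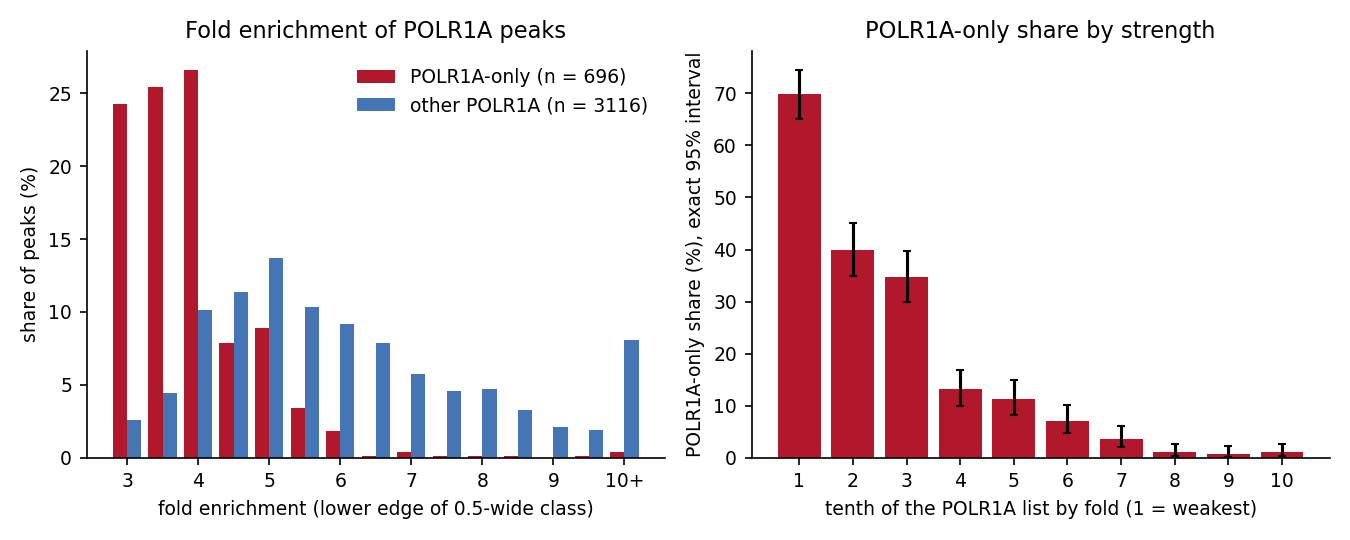
Left, share of peaks (%) in classes of fold enrichment for 696 POLR1A-only peaks (red) and 3116 other POLR1A peaks (blue), with values of 10 or more in the last class. Right, POLR1A-only share (%) of each of 10 groups of the POLR1A list by fold enrichment, with exact 95% intervals, falling to 1.05% in the strongest group, against 69.9% in the weakest.

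A few were strong. The highest value, 18.1 with a −log10 q of 33.8, was at chr13:109424125-109424354, an intergenic site 19845 bp from the uncharacterised lncRNA gene LOC105370359. It ranked 50 in the whole POLR1A list, and the nearest other peak was of H3K9me3, 8061 bp away. The next was at chr8:76645511-76645715 in ZFHX4-AS1, an antisense lncRNA gene, with a fold enrichment of 14.4 and H3K9me3 3593 bp away. A peak of 12.8 lay at chr11:87813838-87814063 within the annotated spans of RAB38, a small GTPase gene of pigment granules, and LOC107984361, and here no peak of any other list lay within 270123 bp. These were the only 3 above 10, and each was narrow (230, 205 and 226 bp).

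Fold enrichment then dropped to 9.92 at chr6:39280920-39281126, which lay 17981 bp from KCNK17, a potassium channel gene. Peaks of 8.63 and 8.10 lay at chr10:41133810-41134017 and chr10:39967513-39967742, inside a gene-free interval of chromosome 10 and more than 1 Mb from any gene of the table. The peak of 7.61 lay 7133 bp from STX2, a syntaxin gene of membrane fusion. At chr11:103404932-103405148 a value of 7.35 lay in DYNC2H1, the dynein heavy chain of cilia, where the table also places MTCO1P15, a nuclear pseudogene of a mitochondrial gene. Reads from mitochondrial DNA and from such a copy may not be separable, so this site is uncertain. Pseudogenes of this kind, looked up after the value was seen, lay under 2 POLR1A-only peaks (0.287%) and 10 other POLR1A peaks (0.321%). The second POLR1A-only peak, at MTCO2P22 on chromosome 5 (3.77), is uncertain for the same reason. The −log10 q was 8.36 at MTCO1P15 and 9.33 at MTCO2P22, high among POLR1A-only peaks.

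The remaining 7 of the 15 strongest ranged from 6.37 to 7.17. They were intergenic peaks 8288 bp from FLT4, a growth factor receptor gene of lymphatic endothelium (7.17), 783758 bp from EMB (7.07) and 3924 bp from TP53AIP1, a p53-induced apoptosis gene (6.46). The others lay within HSD11B1L (6.85), PRDM16, a transcriptional regulator of brown fat (6.46), TREML2, a receptor gene of myeloid cells (6.43), and the lncRNA gene LINC01002 (6.37). The FLT4 and LINC01002 peaks were within 1 Mb of a chromosome end. The EMB peak was in or within 1 Mb of a gene-free interval, with H3K9me3 778 bp and POLR2A 1996 bp away. None of the 24 POLR1A-only peaks with a fold enrichment of at least 6 was at a protein-coding gene end, against 861 of the 1478 other POLR1A peaks of that strength (58.3%). This follows in part from the rule, which leaves out peaks on POLR2A or H3K4me3. Of all POLR1A-only peaks 5.03% were at such ends.

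POLR1A-only summits lay mostly in gene bodies and between genes. Within 1 kb of either end of a protein-coding gene lay 35 (5.03%, interval 3.53 to 6.92), against 45.4% of all POLR1A peaks. Gene bodies outside these windows held 383 (55.0%, interval 51.2 to 58.8), against 32.3% of all POLR1A peaks, and 278 were intergenic (39.9%, interval 36.3 to 43.7), against 22.2% of all. The same 3 classes make up 2.38%, 53.5% and 44.1% of chromosome length up to the last gene or peak. The share in bodies included the length share in its interval, the intergenic share lay just below it and the share at ends above it. Stretches without sequence were not removed from the length, so the small intergenic difference is not read as a shortfall. Promoters are where POLR2A and H3K4me3 peaks are most frequent, so a low share at gene ends follows in part from the rule.

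The difference in position was also present among peaks of like strength. The rule of choice acts at every strength, so this is a description, and a part of strength in it was not tested. At a fold enrichment of 3 to 4, gene ends held 13 of 346 POLR1A-only peaks (3.76%) and 94 of 219 other POLR1A peaks (42.9%). At 5 to 6 they held 7 of 86 (8.14%) and 413 of 749 (55.1%). Peaks shared with POLR2A and with neither histone mark were the class closest in position. Of these 265 peaks, 56.6% were in bodies, 33.2% intergenic and 10.2% at ends (interval 6.82 to 14.5). Their median fold enrichment was 5.10. The 218 peaks on H3K9me3 alone were intergenic in 68.3% of cases (interval 61.7 to 74.5), with a median of 5.44. The intergenic share was higher in POLR1A-only than in other POLR1A peaks on 22 of 23 chromosomes, chromosome 21 being the exception (40.0% and 54.2%).

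**Figure D2:**
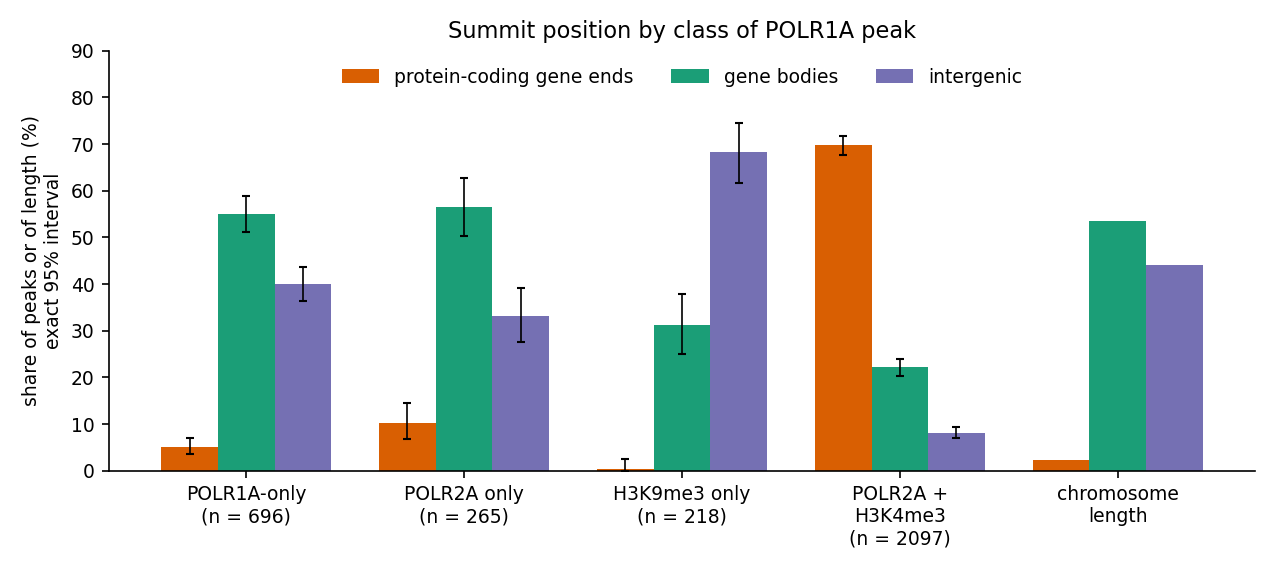
Share (%) of peak summits within 1 kb of protein-coding gene ends (orange), in gene bodies outside those windows (green) and intergenic (purple), for POLR1A-only peaks and 3 other classes of POLR1A peak, with exact 95% intervals. The last group gives the share of chromosome length, stretches without sequence included, which has no interval. POLR1A-only peaks were at 5.03%, 55.0% and 39.9%, and chromosome length at 2.38%, 53.5% and 44.1%.

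Distance to annotated starts, read with strand from the RefSeq promoter windows, was large as well. Chromosome 8, with 43 POLR1A-only peaks, was not used here for starts, promoter windows or strand. The median POLR1A-only summit was 29272 bp from the nearest start, against 408 bp for other POLR1A peaks. Within 1 kb of a start lay 26 of 653 (3.98%, interval 2.62 to 5.78), against 46.9% of all POLR1A peaks, and 75.8% lay more than 10 kb away, against 31.4% of other POLR1A peaks.

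The 35 peaks at protein-coding gene ends had fold enrichments of 3.32 to 5.95 with a median of 4.32, and 1 reached a −log10 q of 5. Where the strand of the gene was known, 16 lay at a 5′ end and 14 at a 3′ end. The highest was at the 3′ end of NOCT, which encodes nocturnin of the circadian system (5.95, −log10 q 5.01). It was followed by the 3′ end of KIAA0319L, a receptor gene for adeno-associated virus (5.90), and the 5′ end of ZCCHC12, a transcriptional coactivator gene (5.19), whose summit was 47 bases before the start. CFAP73, a gene of motile cilia, had 5.03, with the side of the gene unknown. PPP1R3E, a glycogen-targeting phosphatase subunit gene, EPHB1, an ephrin receptor gene, and HAND1, a transcription factor gene of heart and placenta, each had 5.02. BPIFB3 and RNASEH2A, the catalytic subunit gene of RNase H2, had 4.98 each. The last of the 10 strongest such peaks lay between CACNG8 and CACNG6, neighbouring genes of calcium channel gamma subunits, with 4.94.

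Some peaks at ends stood beside a peak of another list. Of the 35, 8 had one within 1 kb (22.9%, interval 10.4 to 40.1), against 47 of the 661 POLR1A-only peaks elsewhere (7.11%, interval 5.27 to 9.34). H3K4me3 lay within 1 kb of 5 of the 35. At RNASEH2A the gap was 83 bp and at ISOC1, an isochorismatase-domain gene, 96 bp, in both cases at the promoters printed above. At the 3′ end of PTMA, the prothymosin alpha gene, a POLR2A peak was 54 bp away.

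Across chromosomes POLR1A-only peaks were spread thinly. They averaged 2.30 per 10 Mb, against 10.3 for other POLR1A peaks, and 261 of 316 intervals of 10 Mb held at least 1. The density ranged from 0.897 per 10 Mb on the X chromosome to 5.46 on chromosome 19, whereas other POLR1A peaks ranged from 2.50 on X to 56.5 on chromosome 19. Chromosome 19, the most gene-dense, had 32 POLR1A-only peaks among 363 (8.82%, interval 6.11 to 12.2), the lowest share. The highest were 28.4% on chromosome 13 (19 of 67, interval 18.01 to 40.7), 28.3% on chromosome 8 (43 of 152, interval 21.3 to 36.2) and 26.4% on X (14 of 53, interval 15.3 to 40.3). Of 23 chromosomes, 12 lay above the share of 18.3% and 11 below. The share on chromosomes 8 and 10 lay above 18.3% with its whole interval, and on chromosome 19 below it. These intervals are not adjusted for the 23 chromosomes looked at.

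Over the 23 chromosomes, the number of POLR1A-only peaks went with chromosome length (Pearson r 0.671, Spearman rho 0.588) and with the number of protein-coding genes (0.724 and 0.654). For other POLR1A peaks the values were 0.324 and 0.348 with length, and 0.873 and 0.847 with genes. These are descriptions, since length and gene number are related and all peaks of a kind come from 1 list.

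**Figure D3:**
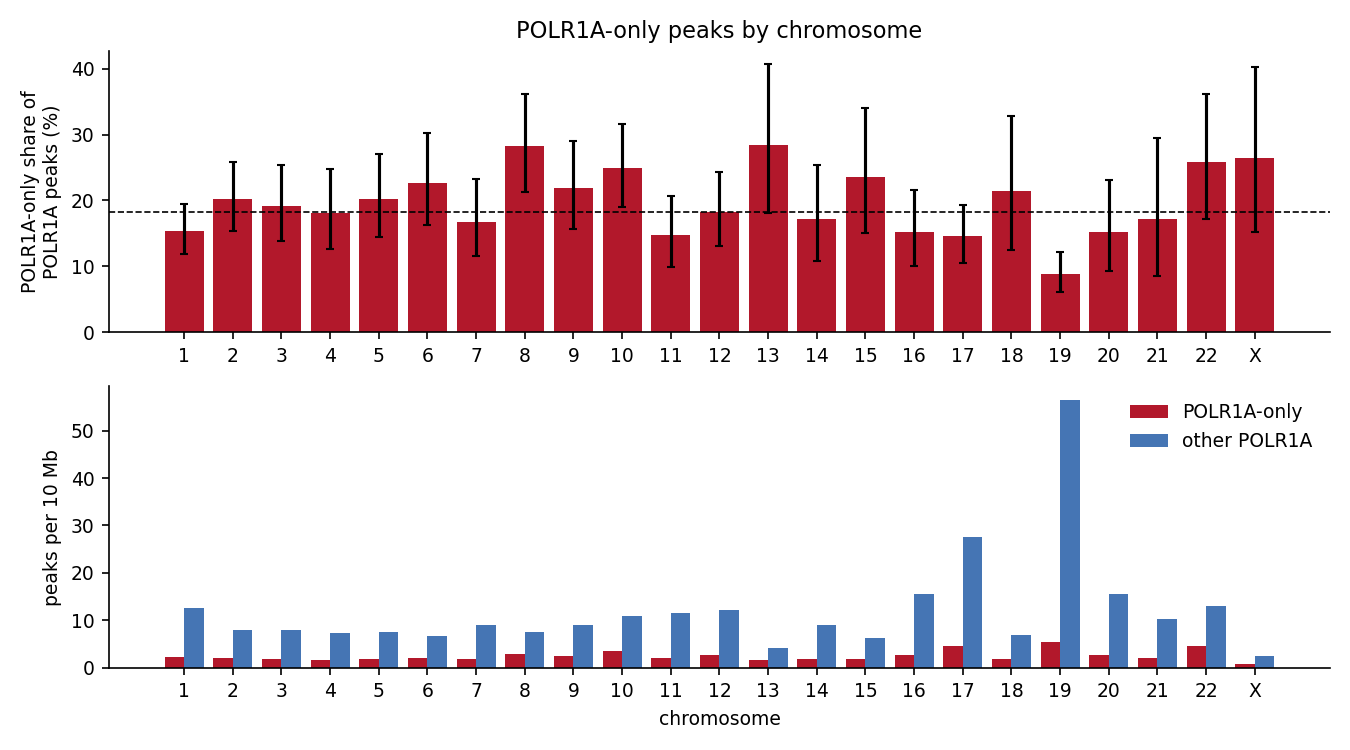
Top, POLR1A-only share (%) of the POLR1A peaks of each chromosome with exact 95% intervals, the dashed line marking 18.3% over all chromosomes. Bottom, peaks per 10 Mb for POLR1A-only (red) and other POLR1A peaks (blue). On chromosome 19 the values were 5.46 and 56.5.

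Chromosome ends and gene-free intervals held a small part. Within 1 Mb of a chromosome end lay 42 POLR1A-only peaks (6.03%, interval 4.38 to 8.07), against 6.48% of all POLR1A peaks and 1.52% of chromosome length. They were spread over 25 of 46 ends, with at most 5 at an end, and had a median fold enrichment of 4.5, against 3.86 in the 612 POLR1A-only peaks outside these margins. Other POLR1A peaks were at 39 of the 46 ends. The p ends of chromosomes 13, 14, 15, 21 and 22 and the q end of 14 had no POLR1A peak of either kind. Intervals of at least 2 Mb without a gene, which include the centromeres, held 42 with their 1 Mb margins (6.03%), against 4.98% of all POLR1A peaks and 7.42% of length. The share among the 218 peaks on H3K9me3 alone was 40.4% (interval 33.8 to 47.2). Stretches without sequence, where no peak can lie, were not removed from the length behind the 1.52% and 7.42%. These 2 values are therefore not read as the share expected of peaks. Of the 26 POLR1A-only peaks with a −log10 q of at least 5, 7 were at chromosome ends and 6 at gene-free intervals. These counts were not made for all 1448 POLR1A peaks at that level.

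Most POLR1A-only peaks lay more than 10 kb from any peak of the other lists. The rule removes every overlapping peak, so the gaps are partly fixed by it. No background distance was computed, so the gaps are not read as unusually large. The median gap was 34542.5 bp to POLR2A, 59740 bp to H3K4me3 and 79183 bp to H3K9me3. Each of the 3 was the nearest list about equally often, with 238, 227 and 231 peaks. The gap to the nearest of the 3 lists had a median of 18345 bp and exceeded 10 kb in 448 peaks (64.4%, interval 60.7 to 67.9) and 100 kb in 68 (9.77%). Within 1 kb lay 55 (7.90%). Those within 1 kb had a median fold enrichment of 4.37, those at 1 to 10 kb 4.21, and those at 10 to 100 kb and beyond 100 kb 3.61 each.

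Few POLR1A-only peaks had a close POLR1A neighbour. The median gap to the next POLR1A peak of any class was 182706.5 bp, against 90238 bp for other POLR1A peaks, and 39 had another POLR1A peak within 10 kb (5.60%, interval 4.01 to 7.58), against 11.5% of all POLR1A peaks. The share differed widely between the other classes. It was 48.2% among peaks on H3K9me3 alone (interval 41.4 to 55.0), which raises the value over all peaks, and 14.0% among peaks on POLR2A alone, with a median gap of 145496 bp. It was 7.87% among peaks with POLR2A and H3K4me3, and 5.03% among the 159 on H3K4me3 alone, below that of POLR1A-only peaks. Only 4 pairs of POLR1A-only neighbours lay within 10 kb. The closest, 206 bp apart, was in LINC01002 near the end of chromosome 19, with fold enrichments of 4.78 and 6.37.

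The rule turns on 1 bp of overlap, so the peaks at its edge are given as values. Just inside it, the peaks in SIM2, a neural transcription factor gene (5.10), and USP34, a deubiquitinase gene (3.83), lay 1 bp from a POLR2A peak, and that in ZSCAN5A, a zinc finger gene (5.85), 4 bp. Just outside it, a peak in CD63, a tetraspanin gene (3.59), shared 9 bp with H3K4me3, and peaks in MYRFL (3.58) and GOLGA3, a Golgi protein gene (4.28), shared 9 bp with POLR2A. At the other extreme, the peak farthest from all other lists was at chrX:222347-222552 in the intergenic sequence 53916 bp from PLCXD1, with a fold enrichment of 6.26 and a gap of 2582066 bp. This part of the X chromosome is shared with Y, and reads from it can be ambiguous. The next was 655263 bp away, near UGT2B17 (3.40), then came the chromosome 10 peaks of 8.10 and 8.63 and a peak near LOC105372345 on chromosome 19 (3.61), at 588618, 537188 and 535377 bp.

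**Figure D4:**
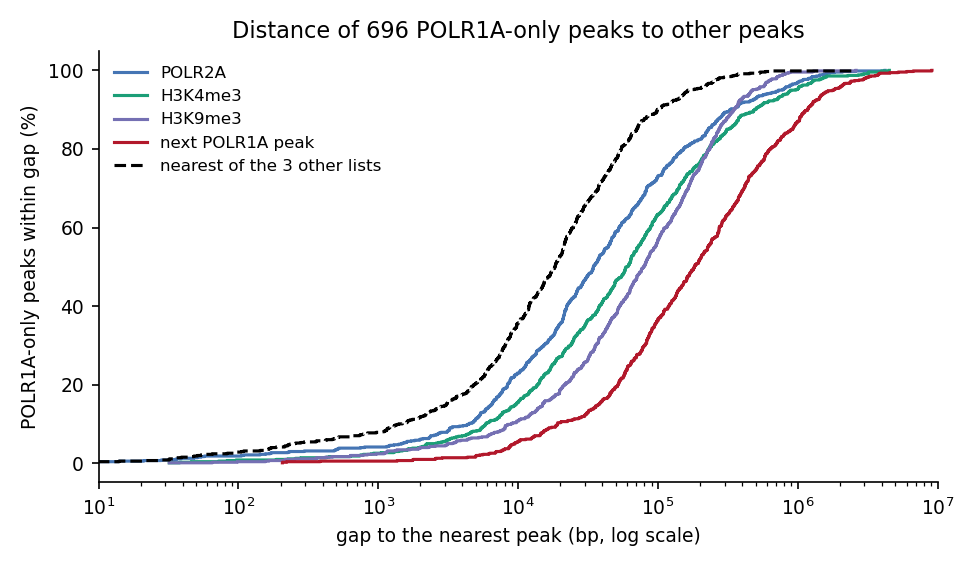
Cumulative share (%) of the 696 POLR1A-only peaks against the gap to the nearest peak (bp, log scale) of POLR2A, H3K4me3 and H3K9me3, to the next POLR1A peak and, dashed, to the nearest of the 3 other lists. The median of the dashed line is 18345 bp.

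Of the 383 peaks in gene bodies, 309 lay in protein-coding genes (80.7%), against 651 of 850 other body peaks (76.6%). These 309 lay in 310 host genes, since annotated spans overlap. The hosts were long, with a median of 117614 bp, against 24505 bp for all protein-coding genes, and a long gene offers more sequence. Per length the order was the reverse. POLR1A-only body peaks numbered 4.21 per 10 Mb of gene span in genes under 10 kb (11 peaks), 3.28 in genes of 10 to 100 kb, 2.26 in genes of 100 to 500 kb and 1.41 in longer ones. Other POLR1A peaks fell more steeply along the same classes, with 12.2, 9.53, 3.47 and 1.34 per 10 Mb. In genes of at least 500 kb the densities of POLR1A-only and other POLR1A peaks were close, resting on 37 and 35 peaks.

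POLR2A and H3K4me3 were at the ends of host genes about as often as at those of all genes. POLR2A lay within 1 kb of an end of 120 of 310 hosts (38.7%, interval 33.3 to 44.4), against 41.3% of all protein-coding genes. H3K4me3 did so at 171 (55.2%, interval 49.4 to 60.8), against 54.6%. Among genes of at least 100 kb, POLR2A was at 63 of 166 hosts (38.0%, interval 30.5 to 45.8), against 39.9% of all genes of that length. A POLR1A peak lay at the ends of 31 hosts (10.0%, interval 6.90 to 13.9), against 11.2% of all protein-coding genes. Each of these shares had the background inside its interval.

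Along the host gene, peaks were spread over its whole length. For the 249 pairs of peak and gene with a known strand, the final 20% of the gene held 65 (26.1%, interval 20.8 to 32.0) and the first 20% held 43 (17.3%, interval 12.8 to 22.5). For 548 such pairs of other POLR1A peaks the shares were 14.8% and 25.2%. The first 5 kb of the gene held 13 POLR1A-only pairs (5.22%), against 102 of other POLR1A peaks (18.6%). Peaks of POLR2A and H3K4me3 are frequent near gene starts, so a low share there follows in part from the rule. For POLR1A-only pairs the interval for the first 20% includes an even share, and that for the final 20% lies just above it. PTPRN2, a phosphatase-like gene of secretory vesicles on chromosome 7, was the only gene with 3 POLR1A-only peaks in its body (4.53, 4.15 and 3.34) and also held 10 other POLR1A body peaks. A further 4 protein-coding genes had 2, namely CTNND2, RORA, KLHL29 and VIPR2, with values of 3.40 to 4.64.

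**Figure D5:**
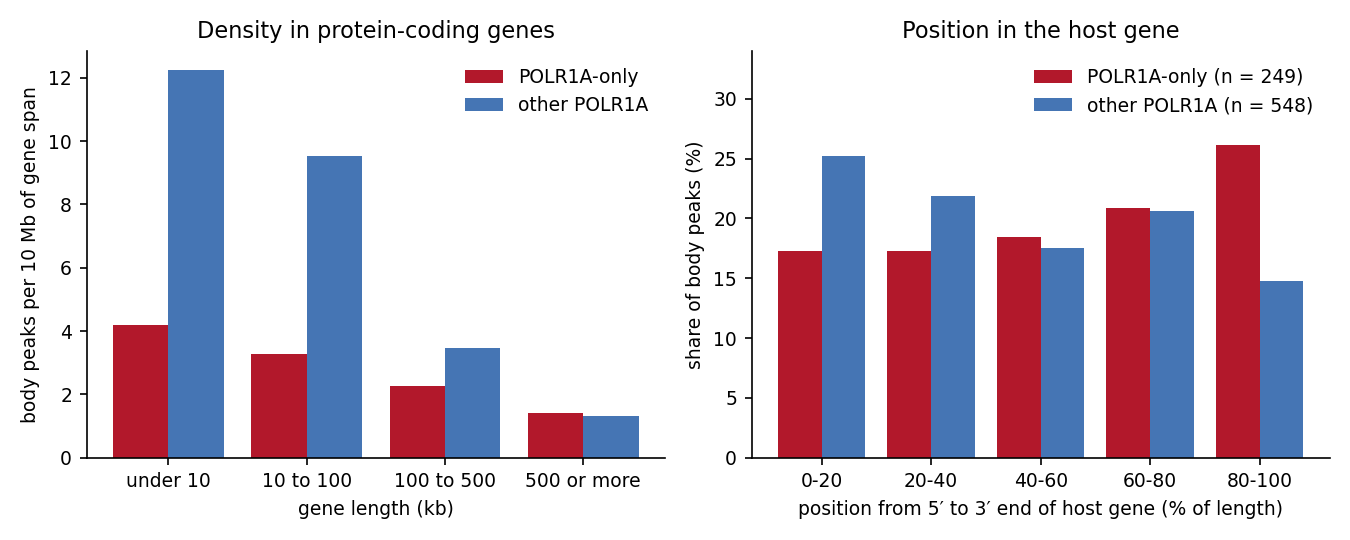
Left, body peaks per 10 Mb of protein-coding gene span by gene length, for POLR1A-only (red) and other POLR1A peaks (blue). Right, share (%) of body peaks in each 20% of the host gene from its 5′ to its 3′ end, for 249 and 548 pairs of peak and gene. The final 20% held 26.1% and 14.8%.

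Among all protein-coding genes 1.76% had a POLR1A-only summit in the gene or within 1 kb, and among all 58415 genes 0.847%. Another POLR1A peak was at 13.8% of protein-coding genes and 6.40% of all genes. None of 16 genes of the polymerase I machinery had one, although 5 had another POLR1A peak. The counts were 0 of 21 polymerase III genes (8 with another POLR1A peak), 0 of 40 ribosome biogenesis genes (7) and 0 of 80 cytosolic ribosomal protein genes (18). They were 0 of 508 transfer RNA genes and pseudogenes (40), 0 of 521 genes and pseudogenes of 5S ribosomal RNA (5) and 0 of 22 gene parts of the 45S ribosomal RNA precursor on these chromosomes (1). At 1.76%, lists of 16 to 80 genes would hold about 1 such gene or none, so nothing is read from these counts of 0. Many of the RNA genes are short, with a median of 73 bp for transfer RNA genes, against 5613 bp over all genes.

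Of 2899 genes and pseudogenes of small nuclear and related RNAs, 2 had one. At RNU6-1, a gene of the U6 spliceosomal RNA, which RNA polymerase III transcribes, the peak chr15:67840032-67840258 (4.25) began inside the gene, with H3K4me3 46 bp away. The other was the pseudogene RNU6-1265P (3.49). Zinc finger genes had 7 of 748 (0.936%), led by ZSCAN5A (5.85), ZNF280C (4.47), ZNF469 (4.37) and ZNF782 (4.32), and another POLR1A peak was at 85. Olfactory receptor genes and pseudogenes had 3 of 872 (0.344%, against 0.847% of all genes) and no other POLR1A peak. The 3 were OR11H13P (4.40), OR6N1 and OR3A2 (3.61 each). The annotated spans of OR6N1 and OR3A2 are 76161 and 110196 bp, against a median of 963 bp in the list. Histone genes had 1 of 95, at H1-8, the oocyte linker histone (4.40). HOX genes had 0 of 39 and clustered protocadherins 0 of 64.

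Symbols of microRNA genes and their hosts had 2 of 1998, MIR4527HG (4.47) and MIR4441 (3.34). LncRNA genes named LINC had 23 of 2305 (0.998%), against 0.642% of all lncRNA genes. They are also longer, with a median of 13674 bp against 9129 bp, and a part of length in this was not tested. Of 30 large genes often named at fragile sites, 2 had one, SDK1 (4.40) and CSMD1 (3.61), or 6.67%, against 10.5% of the 314 protein-coding genes of at least 500 kb. Markers of cell types had none, except RBFOX3 among 8 neuronal genes (3.92).

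The 5 widest POLR1A-only peaks were in RBFADN near the end of chromosome 18 (699 bp, 6.33), ZSCAN5A (660 bp), ADAP1 near the end of chromosome 7 (657 bp, 6.27) and LALTOP (652 bp, 4.31), and near LINC01488 (597 bp, 5.16).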

How the data were processed

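CUT&Tag libraries of WT HCT116 cells (10 samples) were represented by 4 peak lists in MACS2 format, 1 per target. The authors deposited for each peak a fold enrichment (a linear ratio), −log10 q and a summit offset. Only the H3K4me3 list is tied to 1 sample, and no replicate is named in the rest. How peaks were called, against which control and whether on pooled samples is not given in the sources used here. Depth is unknown. Coordinates are of GRCh38 (hg38), per the submitters' processing notes, which list SAMtools 1.6 and deepTools 3.1.1 among their tools. Each list was restricted to chromosomes 1 to 22 and X.

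Overlap meant 1 shared base. Genes came from a RefSeq table of GRCh38.p14. Of 59094 genes on these chromosomes, 679 on scaffolds were left out, and 19817 of those kept are protein-coding. Strand came from RefSeq promoter windows, where chromosome 8 was not used here. Python 3.11.15, pandas 2.3.3 and SciPy 1.17.1 were used, and overlaps and gaps were checked on simulated peaks against bedtools 2.31.1.

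The POLR1A-only peaks, gene lists and settings were chosen with earlier results of these data known. Genes were named by rule: the 15 strongest peaks, the 10 strongest at gene ends, the 5 widest, the 3 nearest to and 5 farthest from other lists, 3 just outside, up to 4 per list and genes with 3 or more. Distance to annotated starts was added after the data were seen.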

Additional observations from a re-analysis of the deposited data

How the results depend on the processing

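No paired analysis was possible because the lists carry no replicate, and for the same reason no replicate could be left out. Leaving out each chromosome in turn gave 639 to 686 POLR1A-only peaks, a median fold enrichment of 3.98 to 4.11, 3.44 to 4.02% with a −log10 q of at least 5, 4.79 to 5.21% at gene ends, 54.2 to 56.5% in bodies, 38.4 to 40.8% intergenic, 11.5 to 12.6% in the margins and 63.4 to 65.1% beyond 10 kb from other lists. With POLR1A peaks of a −log10 q of at least 2, 329 remained, with a median of 4.51, 7.90% at a −log10 q of at least 5 and 57.1% beyond 10 kb. At 5 or more, 26 remained, with a median of 6.44, by construction 100% past 5, and 50% in bodies, 46.2% intergenic, 50% in the margins and 53.8% beyond 10 kb, all resting on 26 peaks. Counting peaks within 1 kb as shared put 69.9% beyond 10 kb, requiring the summit to be covered 58.1%, and other lists at a −log10 q of at least 2 gave 69.7%. Without the H3K4me3 list 13.3% were at gene ends, 50.9% in bodies and 35.8% intergenic, because peaks on that mark alone then enter. Without the margins 2.12% had a −log10 q of at least 5. Windows of 500 bp and 2 kb put 3.16% and 8.76% at gene ends by their size. Protein-coding genes alone put 44.4% in bodies and 50.6% intergenic. Depth is unknown, so a missing peak in another list does not show that its target was absent.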

Other observations

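Of the 26 POLR1A-only peaks with a −log10 q of at least 5, 13 lay near a chromosome end or a gene-free interval, against 12.1% of all 696. The same share among all 1448 POLR1A peaks at that level was not computed. Whether it is particular to POLR1A-only peaks is therefore not known. The median gap from POLR1A-only peaks to H3K9me3 was 54592 bp at chromosome ends, 33498 bp at gene-free intervals and 83726 bp elsewhere. To POLR2A it was 21699 bp, 713314 bp and 32253.5 bp in the same order. No background distance was computed for these places.

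The intervals of 10 Mb richest in POLR1A-only peaks were 80 to 90 Mb of chromosome 16 with 11, beside 25 other POLR1A peaks, and 40 to 50 Mb of chromosome 19 with 10, beside 95. On chromosome 1 the interval from 120 to 130 Mb, which holds part of a gene-free interval, had 8, beside 4 others.

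The summit lay in the central part of the peak, from 25% to 75% of its width, in 64.4% of POLR1A-only peaks and 59.5% of other POLR1A peaks. The POLR1A list also held 310 peaks on chromosome Y and other contigs, which were not analysed here.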
